A study of Oryza sativa with 12 samples.

Results

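PPDKB (LOC4338750) is a rice gene for pyruvate, phosphate dikinase, and it was found by its name in the gene table, which also lists it as cpdk, CPDK1 and PPDK1. It was 1 gene of the 15798 genes measured, and it had 1 probe on the array. The gene was chosen with its measured ratios known, so its own values are described below and carry no test. PPDKA is not a name in the gene table used here. The other gene listed there as a pyruvate, phosphate dikinase is PPDK2 (LOC4333181, also CPDK2), it too had 1 probe, and it is given beside PPDKB.

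The study deprived rice (Oryza sativa) suspension cells of sucrose in Murashige and Skoog medium and compared their polyadenylated RNA with that of control cells on 12 two-colour Agilent rice arrays. Cells without sucrose for 12, 24 or 48 h were set against cells kept for as long in medium with 3% sucrose, on 3 arrays for each time. A further 3 arrays set cells without sucrose for 12 h against cells in 88 mM sorbitol, which the design included to allow for osmotic stress. The labels name no cultivar or genotype, do not say whether the sorbitol medium held any sucrose, and leave unsaid whether replicate arrays are of separate cultures. P-values therefore reflect array-to-array spread alone, and part or all of it may be technical. Cells without sucrose carried Cy5 and control cells Cy3 on every array, so no dye swap balances a dye effect. Values below are log2 ratios, starved cells (those without sucrose) over their controls, and the number of arrays limits their precision. The labels do not state how the ratio was formed, and it was read as Cy5 over Cy3. An array gives no level of a transcript here, only its ratio, and in bulk RNA fewer cells of a type and less RNA per cell cannot be told apart.

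Pyruvate, phosphate dikinase (PPDK) catalyses a reversible step in which pyruvate, ATP and phosphate give phosphoenolpyruvate (PEP), AMP and pyrophosphate. In leaves of maize it regenerates PEP as the acceptor for carbon fixation, and in other plant tissues it can run beside pyruvate kinase at the last step of glycolysis, spending pyrophosphate to make ATP, or in the opposite direction to return pyruvate to PEP. In rice, PPDKB is best known from the developing grain, where loss of the gene gives a white-core floury endosperm. In maize a PPDK gene is known to give a chloroplast form and a cytosolic form from separate starts. A single probe whose position was not used here cannot tell such forms apart.

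The direction of the ratios was checked on sugar starvation genes. RAmy3D, a rice alpha-amylase gene classically induced when cultured cells run out of sugar, was at 3.83, 1.17 and 2.01 at 12 h, at 1.55, 2.26 and 2.52 at 24 h, and at 2.44, 2.17 and 3.26 at 48 h. It was above 0 on all 9 arrays against sucrose, and at 0.05, 0.05 and 0.00 against sorbitol. RAmy3E, another alpha-amylase gene of the same kind, lay between 1.71 and 5.42 on those 9 arrays. The spread of log2 ratios over probes (SD) was 0.645 to 1.26 on the arrays against sucrose and 0.298 to 0.381 on those against sorbitol, so the 2 sets differ in range for most probes.

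PPDKB had log2 ratios above 0 on all 9 arrays against sucrose, as did 9.72% of all features with 9 values. Its highest mean and its highest array were at 12 h. At 12 h its log2 ratios were 4.63, 3.89 and 2.87, that is 24.8, 14.8 and 7.32-fold, and the 3 arrays were all high. At 24 h the log2 ratios were 1.66, 4.05 and 2.60, with replicate 2 above the other arrays and within the range at 12 h. At 48 h they were 2.54, 4.32 and 0.14, so replicate 2 was again high while replicate 3 was close to no difference. Against sorbitol at 12 h the log2 ratios were -0.04, -0.22 and -0.30, and all 3 arrays sat close to 0.

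**Figure D1:**
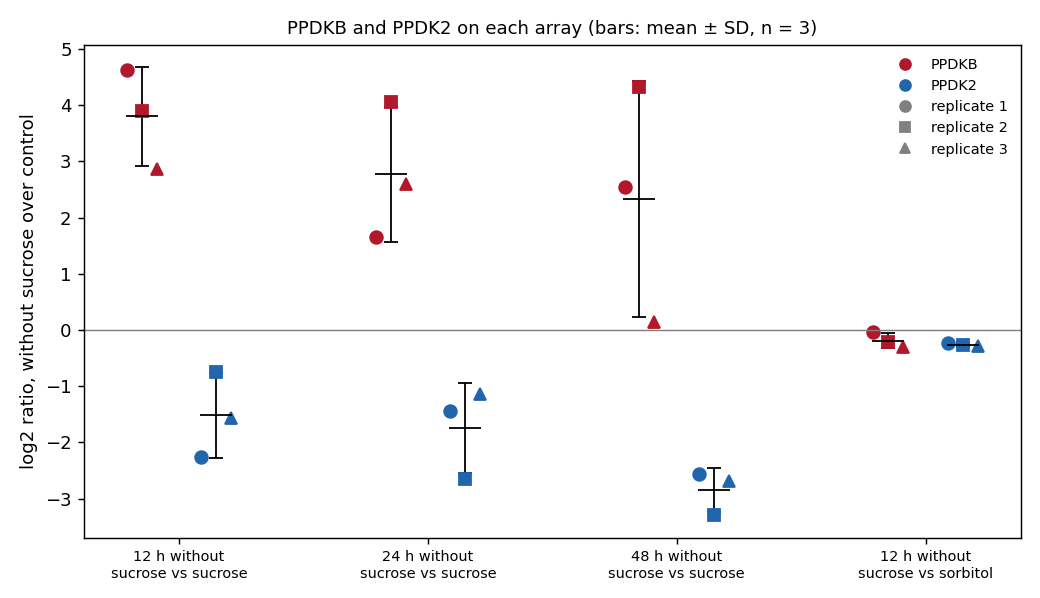
Log2 ratio of starved over control cells (vertical axis) for PPDKB and PPDK2 on each of the 12 arrays, grouped by time and control (horizontal axis), with the mean ± SD of 3 arrays. PPDKB lies between 0.14 and 4.63 on the arrays against sucrose, PPDK2 lies between -3.30 and -0.74 there, and both lie between -0.30 and -0.04 against sorbitol.

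The group means of PPDKB were 3.80 ± 0.88 at 12 h, 2.77 ± 1.20 at 24 h, 2.33 ± 2.10 at 48 h and -0.19 ± 0.13 against sorbitol (SD, n = 3 each). These correspond to 13.9-fold, 6.82-fold, 5.03-fold and 0.877-fold. In order of the means, 12 h came before 24 h, 48 h and sorbitol. The 12 and 24 h arrays overlapped, as did the 24 and 48 h arrays, and the mean differences of -1.03 (24 minus 12 h) and -0.44 (48 minus 24 h) were smaller than the SD of the more variable group. The difference between 48 and 12 h was -1.47, again within the SD at 48 h. The lowest array at 48 h (0.14) and the highest against sorbitol (-0.04) did not overlap but were close, whereas the 12 h arrays against sucrose and against sorbitol stood 2.87 or more and -0.04 or less. The 12 h mean against sucrose was 3.99 above that against sorbitol, a difference that stands for sorbitol-treated over sucrose-fed cells if cells without sucrose were alike in both sets.

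The 48 h mean rested on which arrays were averaged. Without replicate 3 it was 3.43, without replicate 2 it was 1.34 and without replicate 1 it was 2.23, each with 2 arrays left. Quantile normalization of the arrays, which gives them a common spread, put the 48 h mean at 1.5. On replicate 3 PPDKB ranked 7638 of 19276 features from the top, and 60.4% of features had lower ratios, whereas on 48 h replicate 2 it ranked 78 of 17004. The starvation amylase RAmy3E was at 5.42 on 48 h replicate 3, its highest value of the 12 arrays, and RAmy3D at 3.26 there. The ratios of both amylase genes were thus not low on the array where that of PPDKB was. Other genes described below differed there, with MCCA at 0.13 and RISBZ5 at 0.93 but HXK6 at 2.07. The SD over probes of that array was 0.645, at the lower end for arrays against sucrose. Replicate 3 of the 24 and 48 h groups deviated alike from the group means over all features (r = 0.496), as did replicates 1 (0.566) and 2 (0.443), so same-numbered arrays of these times may be read as pairs. PPDKB differed between the paired arrays (48 minus 24 h) by 0.87 for number 1, 0.27 for number 2 and -2.46 for number 3, and the pairs did not share a direction.

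Within each array PPDKB was near the top of all features at 12 h. It ranked 10 of 18609, 5 of 18371 and 43 of 19433 on the 3 arrays. By group mean, 2 of the other features with values on all 3 arrays stood higher at 12 h, of 18270 in all. At 24 h, 76 of 19003 had a higher mean, and at 48 h 234 of 16916 did. At 24 h its rank was 577, 63 and 62 on replicates 1 to 3, so replicate 1 placed it lower than the other arrays. PPDKB was at least 2-fold higher on 8 of the 9 arrays against sucrose, which held on 8 or 9 arrays for 264 of the 16803 features with all 9 values. Against sorbitol it was near the middle on replicate 1 and in the lower part on replicates 2 and 3, with 43.0%, 22.6% and 18.1% of features below it.

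**Figure D2:**
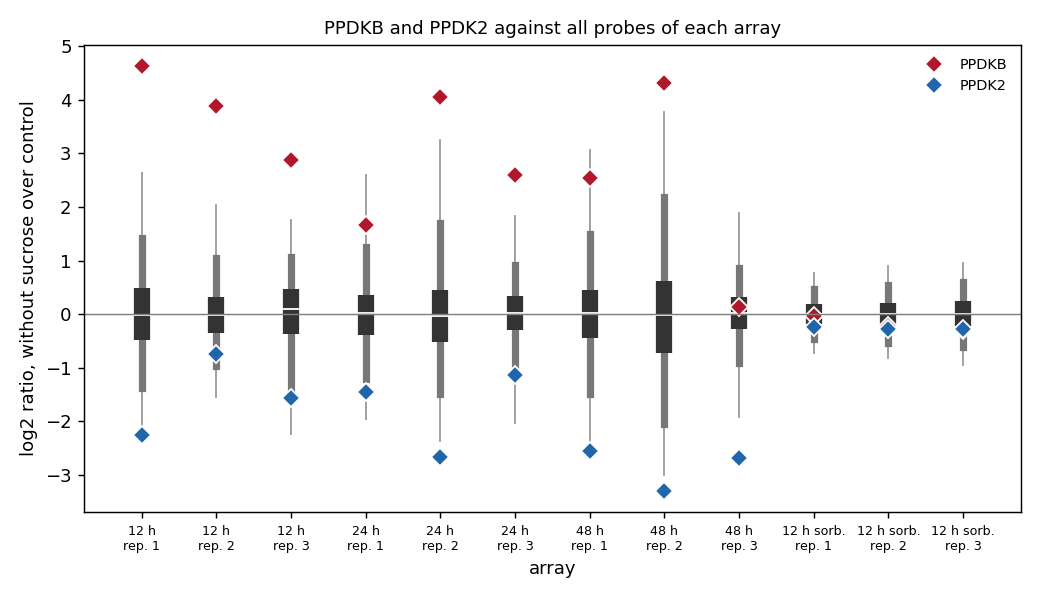
Log2 ratios of PPDKB and PPDK2 (diamonds) on each of the 12 arrays over the spread of all probes of that array, where the thin line spans the 1st to 99th percentile, the grey bar the 5th to 95th, the black bar the 25th to 75th and the white line is the median. PPDKB lies above the 99th percentile on all 12 h arrays against sucrose and within the middle bar on 48 h replicate 3 (log2 ratio 0.14), while PPDK2 lies below the median on every array.

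PPDK2 was lower in cells without sucrose. Its log2 ratios were -2.26, -0.74 and -1.57 at 12 h, -1.45, -2.66 and -1.14 at 24 h, and -2.56, -3.30 and -2.69 at 48 h. All 9 were below 0, and the 3 values at 48 h were close together. Of all features with 9 values, 8.6% were below 0 on every array against sucrose. Against sorbitol PPDK2 was at -0.24, -0.27 and -0.28.

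PPDK2 fell at each time in limma's fit across all features. The mean was -1.52 ± 0.76 at 12 h (adjusted p = 0.0101), -1.75 ± 0.80 at 24 h (adjusted p = 0.00465) and -2.85 ± 0.39 at 48 h (adjusted p = 8.5e-05, SD, n = 3 each), and the last is 7.21-fold lower in cells without sucrose. Calls in the same direction made up 4.04%, 3.87% and 13% of all features tested at 12, 24 and 48 h. The 12 h call did not pass without replicate 1 (-1.16, adjusted p = 0.121), nor the 24 h call without replicate 2 (-1.30, adjusted p = 0.0511) or when only the 24 h arrays were fitted (adjusted p = 0.0631), whereas the 48 h call passed without each array in turn. Against sorbitol the mean of -0.26 ± 0.02 did not pass (adjusted p = 0.952), but with only the sorbitol arrays in the fit it did (adjusted p = 0.0242), at a size of 1.2-fold, as did 35.9% of all features.

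No difference between times passed for PPDK2. The 24 minus 12 h difference was -0.23 ± 0.432 (SE, adjusted p = 0.995) and the 48 minus 24 h difference was -1.10 ± 0.433 (SE, adjusted p = 0.999). All 3 same-numbered pairs of 24 and 48 h arrays were lower at 48 h, by -1.11, -0.64 and -1.55, and with the number as a block the adjusted p was 0.685. The 48 minus 12 h difference was -1.33 (adjusted p = 0.365). The 12 h mean against sucrose was 1.26 below that against sorbitol (difference -1.26, adjusted p = 0.197).

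PPDKB was above PPDK2 on the log2 ratio scale by 2.83 to 7.62 on the 9 arrays against sucrose. The gap was smallest on 48 h replicate 3 and largest on 48 h replicate 2, and against sorbitol it ran from -0.03 to 0.20. Over the 12 arrays the ratios of the 2 genes had a Pearson correlation of -0.59, and of -0.0639 over the 9 arrays against sucrose. These are descriptions over arrays that share the time groups and a common cluster near 0. PDRP1, the regulatory protein that in leaves inactivates PPDK by adding a phosphate and reactivates it by removing it, is in the gene table but had no measured probe here.

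The other genes around the same metabolites were taken from 7 lists built from gene names, with 47 genes besides PPDKB on the array. Of these, 43 could be tested at 12 h, and 4 rose and 8 fell. At 24 h 2 rose and 12 fell of 46, and at 48 h 2 rose and 21 fell of 40. Across all features 9.09%, 8.6% and 25.5% were called at 12, 24 and 48 h, and 5.04%, 4.73% and 12.4% were called higher. The median log2 ratio of the listed genes was -0.29, -0.22 and -0.95, against 0.00, 0.00 and 0.01 over all features. Calls that passed without any single array of the 12 numbered 4 at 12 h (GAPC2, GDH2, PDC1 and RISBZ5), 4 at 24 h (GAPC2, GDH2, PDC1 and PDC2) and 13 at 48 h. Without 12 h replicate 1 the count at 12 h was 4, and without any one of the 3 sorbitol arrays, it was 7. Without 24 h replicate 1 or 2 the count at 24 h was 6 or 5, and without 48 h replicate 2 the count at 48 h was 14.

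**Figure D3:**
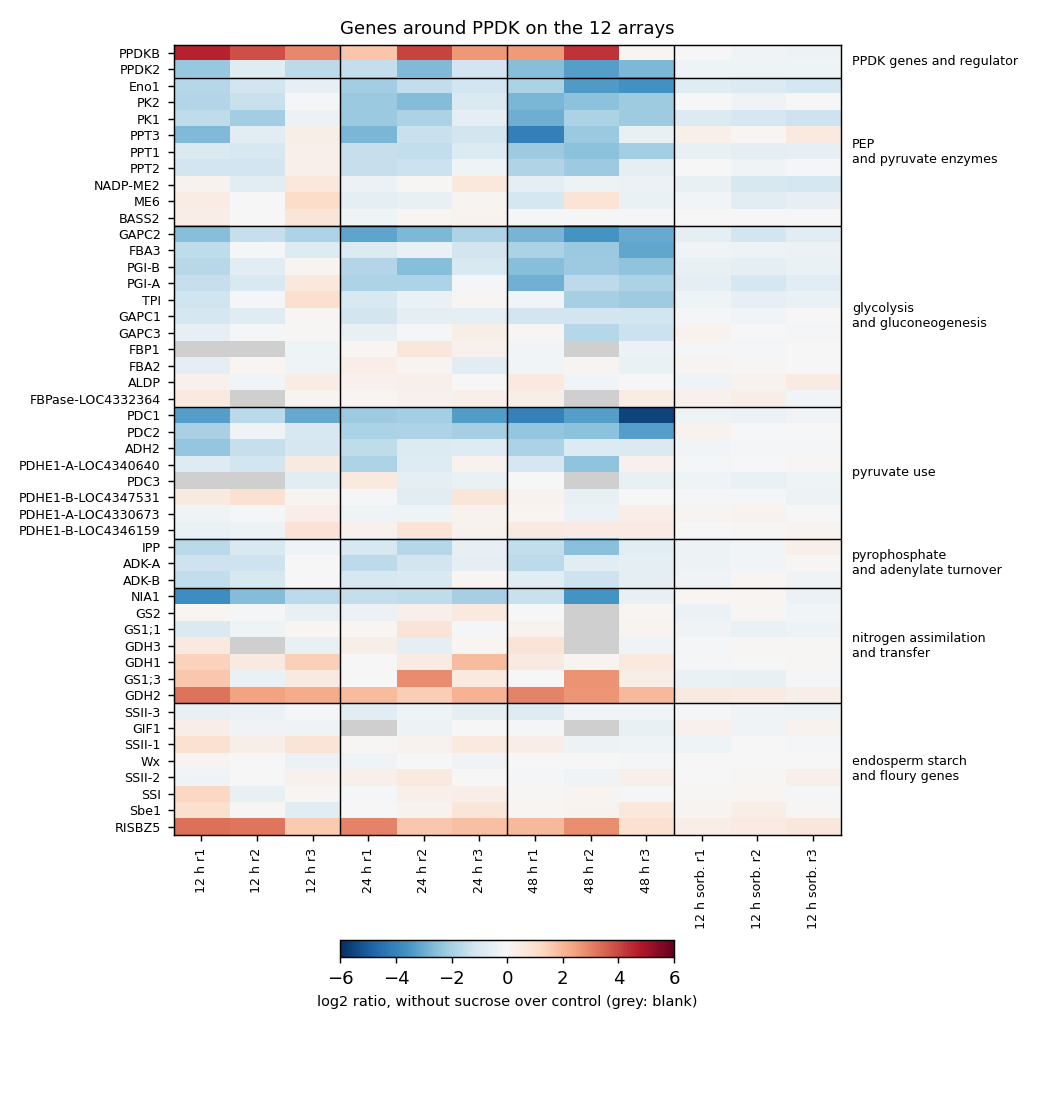
Log2 ratio of starved over control cells, as colour from -6 to 6, for PPDKB, PPDK2 and the other 46 listed genes (rows, by list) on each of the 12 arrays (columns, r for replicate, sorb. for sorbitol). Grey cells are blank. PPDKB is the top row and reaches 4.63, and the PEP, glycolysis and fermentation rows are mostly blue at 48 h. GDH1, GDH2 and RISBZ5 are the other rows above 0 on every array against sucrose, as were 9.72% of all features with 9 values.

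The enzymes and transporters that make, use or carry PEP and pyruvate fell or were not called, and none of these 9 genes rose. At 12 h 2 of 9 fell, at 24 h 4 of 9 and at 48 h 6 of 9, with medians of -0.66, -1.24 and -2.23. Across all features tested, 4.04%, 3.87% and 13% were called lower at these times. Enolase Eno1, which makes PEP in glycolysis, was at -1.71, -1.17 and -0.47 at 12 h, at -2.10, -1.46 and -1.16 at 24 h and at -1.90, -3.38 and -3.64 at 48 h. It fell at each time, with a mean of -2.97 ± 0.94 at 48 h (adjusted p = 8.33e-05), while its 12 and 24 h calls were lost without replicate 1 or 2 of that time, and at 12 h also without 24 h replicate 1 or 2 or any sorbitol array (adjusted p up to 0.31 and 0.0944). Enolase transcript ratios were therefore below 0 on all 9 arrays on which PPDKB was above 0.

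Pyruvate kinase turns PEP into pyruvate, which is the reaction PPDK can reverse. PK1 was at -1.53, -2.09 and -0.36 at 12 h, at -2.23, -1.90 and -0.53 at 24 h and at -2.94, -1.89 and -2.15 at 48 h. PK1 fell at the 3 times, with means of -1.33, -1.55 and -2.33 (adjusted p = 0.0352, 0.0184 and 0.000748), and its 12 and 24 h calls were lost without replicate 1 or 2 of that time, and at 12 h also without any sorbitol array (adjusted p up to 0.206 and 0.151). PK2, a second pyruvate kinase gene, was at -1.77, -1.33 and -0.05 at 12 h, where its mean of -1.05 did not pass (adjusted p = 0.0732). It fell at 24 h (-1.90 ± 0.92, adjusted p = 0.00518) and at 48 h (-2.46 ± 0.30, adjusted p = 0.00042). The 24 h calls of PK2 and of the translocator PPT1 were lost without 24 h replicate 1 or 2 (adjusted p up to 0.0615 and 0.066). At 48 h the ratios of both genes were -1.89 or lower on every array.

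PEP/phosphate translocators carry PEP across the plastid envelope. PPT1 was at -0.86, -0.96 and 0.29 at 12 h, and fell at 24 h (-1.24 ± 0.35, adjusted p = 0.00654) and at 48 h (-2.23 ± 0.19, adjusted p = 7.25e-05). PPT2 and PPT3 passed at 48 h, with means of -1.52 ± 0.83 and -2.26 ± 1.83 (adjusted p = 0.00768 and 0.0173), and did not without 48 h replicate 1 or 2 (adjusted p up to 0.0951 and 0.149). On 12 h replicate 3 the 3 translocators were slightly above 0, at 0.29, 0.32 and 0.34, and PPDKB had its lowest 12 h ratio on the same array. The remaining genes of the list, the malic enzymes ME6 and NADP-ME2 and the pyruvate carrier BASS2, were named after their values were seen. ME6 and NADP-ME2 make pyruvate from malate, and BASS2 imports pyruvate into plastids. Their means lay between -0.41 and 0.52 at the 3 times and none passed the test.

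**Figure D4:**
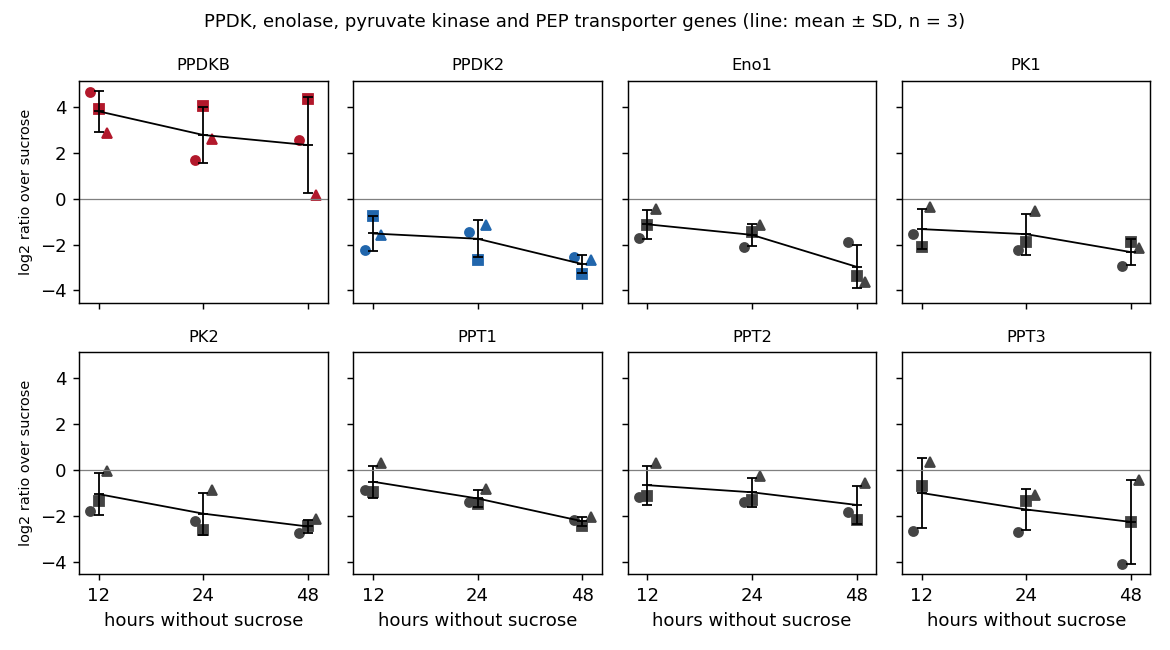
Log2 ratio over sucrose-fed cells (vertical axis) at 12, 24 and 48 h without sucrose (horizontal axis) for PPDKB, PPDK2, enolase Eno1, the pyruvate kinases PK1 and PK2 and the PEP translocators PPT1, PPT2 and PPT3. Circles, squares and triangles are replicates 1, 2 and 3 and the line joins means ± SD of 3 arrays. PPDKB has means of 3.80, 2.77 and 2.33 and the other 7 genes have means below 0 at each time.

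Among 11 genes of the glycolytic steps from hexose to PEP, 1 of 9 tested fell at 12 h, 3 of 11 at 24 h and 7 of 9 at 48 h, and none rose. No difference between times passed for any of them. Lower calls made up 4.04%, 3.87% and 13% of all features at 12, 24 and 48 h, so that share was also highest at 48 h. GAPC2, a glyceraldehyde-3-phosphate dehydrogenase of the cytosol, fell at each time, with -2.55, -1.36 and -1.84 at 12 h and a mean of -3.12 ± 0.40 at 48 h (adjusted p = 3.02e-05). The aldolase FBA3 was at -1.89, -2.25 and -3.11 at 48 h (adjusted p = 0.000131). The phosphoglucose isomerases PGI-B and PGI-A had means of -2.39 ± 0.18 and -2.12 ± 0.69 at 48 h (adjusted p = 0.00037 and 0.00317), triose phosphate isomerase TPI -1.43 ± 1.11 (adjusted p = 0.0208), and GAPC1 -1.13 ± 0.01 (adjusted p = 0.00302). The TPI call did not pass without 48 h replicate 2 or 3, with an adjusted p of up to 0.175. The 2 fructose bisphosphatase genes on the array, which work only toward sugar synthesis, had blanks at 12 and 48 h and were tested at 24 h, where neither passed.

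Of genes that draw on pyruvate 8 were on the array, with 7 tested at 12 h, 8 at 24 h and 7 at 48 h. At each time 3 fell, all of them genes of ethanol fermentation, and none rose. Of all features tested, 4.04%, 3.87% and 13% were called lower at 12, 24 and 48 h. Pyruvate decarboxylase turns pyruvate into acetaldehyde, and PDC1 was at -3.31, -1.61 and -3.06 at 12 h, at -2.14, -2.02 and -3.36 at 24 h and at -4.05, -3.30 and -5.55 at 48 h. The PDC1 mean at 48 h was -4.30 ± 1.14 (adjusted p = 3.73e-05). On 48 h replicate 3, where PPDKB was lowest, PDC1 was at its own lowest value. PDC2 fell at 12, 24 and 48 h, with means of -1.03, -1.91 and -2.70 (adjusted p = 0.037, 0.00159 and 6.59e-05). The 12 h call for PDC2 did not pass without 12 h replicate 1 or 3, 24 h replicate 1 or any sorbitol array (adjusted p up to 0.305). ADH2, an alcohol dehydrogenase, fell with means of -1.56, -1.05 and -1.19, and each of its calls was lost without replicate 1 of that time, and at 24 h also without replicate 2 or any sorbitol array (adjusted p up to 0.0614, 0.221 and 0.0732). A further pyruvate decarboxylase gene, PDC3, was named after its values were seen. It had blanks at 12 and 48 h and a 24 h mean of -0.13 (adjusted p = 0.77). The 4 genes for the E1 component of pyruvate dehydrogenase did not pass at any time.

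Pyrophosphate and AMP are made or used by PPDK, and 3 genes of their turnover were on the array. At 12 h none was called, at 24 h 1 fell and at 48 h all 3 fell. Over all features, 4.04%, 3.87% and 13% were called lower at these times. At 48 h the inorganic pyrophosphatase gene IPP was at -1.48, -2.51 and -0.69 (adjusted p = 0.00626). The adenylate kinases ADK-A and ADK-B, which interconvert AMP, ADP and ATP, had 48 h means of -0.92 ± 0.59 and -0.84 ± 0.34 (adjusted p = 0.032 and 0.046). Each of these 3 calls was lost on leaving out at least 1 array of that time, with the adjusted p up to 0.0848, 0.221 and 0.273. ADK-A also fell at 24 h, with a mean of -1.07 ± 0.49 (adjusted p = 0.034), which was lost without 24 h replicate 1 or 2 or any sorbitol array (adjusted p up to 0.221).

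Of 7 nitrogen genes on the array, 6 were tested at 12 h, 7 at 24 h and 4 at 48 h. Among these, 2 rose and 1 fell at 12 h, 1 rose at 24 h, and 1 rose and 1 fell at 48 h. Over all features, 9.09%, 8.6% and 25.5% were called at these times in either direction. GDH2, a glutamate dehydrogenase that releases ammonium from glutamate, was at 3.27, 2.42 and 2.22 at 12 h, at 1.88, 1.47 and 2.07 at 24 h and at 2.99, 2.64 and 1.93 at 48 h. All 9 arrays were high, the 12 h arrays lay above the 24 h arrays, and the 48 h arrays overlapped both. The means were 2.63 ± 0.55, 1.81 ± 0.30 and 2.52 ± 0.54 (adjusted p = 0.000194, 0.000983 and 3.98e-05), and each call passed without any single array. GDH1 rose at 12 h (1.12 ± 0.51, adjusted p = 0.0347), and the call did not pass without 12 h replicate 1 or 3 or any sorbitol array (adjusted p up to 0.218). The nitrate reductase gene NIA1, of the first step of nitrate assimilation, was at -3.73, -2.60 and -1.59 at 12 h. NIA1 fell at 12 and 48 h (adjusted p = 0.00615 and 0.0174), and its 24 h mean of -1.65 did not pass (adjusted p = 0.053). Without 12 h replicate 1 and without 48 h replicate 2 the calls at those times were lost (adjusted p = 0.0831 and 0.198). The glutamine synthetase genes tested did not pass at any time.

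Since PPDKB is known from the grain, genes named for endosperm starch or floury grain were set beside it. The list was matched by name and took in RISBZ5 (also BZIP52), a transcription factor gene rather than one for a starch enzyme. Of 8 on the array, 8 were tested at 12 h, 7 at 24 h and 7 at 48 h. Among these, 2 rose at 12 h, 1 at 24 h and 1 at 48 h, and none fell. The share of all features called higher was 5.04%, 4.73% and 12.4% at these times. RISBZ5, a bZIP transcription factor gene, was at 3.32, 3.23 and 1.57 at 12 h, at 2.97, 1.61 and 1.82 at 24 h and at 1.96, 2.79 and 0.93 at 48 h. RISBZ5 rose at the 3 times (means 2.70, 2.14 and 1.89; adjusted p = 0.00156, 0.00551 and 0.0045), though without 24 h replicate 1 and without 48 h replicate 2 the calls at those times had adjusted p-values of 0.0609 and 0.0638. Among the arrays against sucrose its lowest, 48 h replicate 3, was also that of PPDKB. Apart from RISBZ5, only the starch synthase gene SSII-1 rose, at 12 h (0.68 ± 0.28, adjusted p = 0.0462). That call was lost on leaving out any 12 h array and several others (adjusted p up to 0.267).

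The other 6 genes of this list did not pass where tested, with means between -0.51 and 0.32 at the 3 times. The starch synthase gene SSII-3 was below 0 on all 9 arrays against sucrose, with means of -0.29, -0.51 and -0.37 at 12, 24 and 48 h (adjusted p = 0.336, 0.087 and 0.152). Means of the granule-bound starch synthase gene Wx were -0.06, -0.15 and -0.03, and those of the branching enzyme gene Sbe1 were 0.13, 0.31 and 0.32 at 12, 24 and 48 h. These 3 were named after their values were seen. The glutelin genes GLUA-1, GLUA-2, GLUA-3 and GLUB-5, markers of endosperm, had means between -0.55 and 0.24, and none passed. The globulin gene GLB passed at 48 h only, lower, at -0.79 ± 0.92 (adjusted p = 0.047). The leaf marker CAB1R, for a chlorophyll-binding protein, had means between 0.35 and 0.80 and did not pass at any time, and CAB2R had blanks in each group against sucrose. Ratios do not show whether any of these transcripts was present.

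Against sorbitol, no listed gene passed in limma's fit of all 12 arrays (0 of 47, with 4 at an unadjusted p under 0.05), against 0.0515% of all features. At that unadjusted threshold 6.49% of all features stood. With only the sorbitol arrays in the fit 18 of 47 passed, 3 higher and 15 lower, against 35.9% of all features, 18.3% higher and 17.6% lower. After quantile normalization 2 of 47 passed higher and 9 lower, 11 in all, against 9.84%, 10.4% and 20.3% of all features. PPDKB stood at -0.19 in this group, and the listed genes had a median of -0.09. Lower means in this group included PK1 (-1.03 ± 0.20), Eno1 (-0.88 ± 0.17) and GAPC2 (-0.78 ± 0.31), each with the 3 arrays below 0 but an adjusted p of 0.586 or more in the fit of all arrays. For PK1 the 3 arrays were at -0.84, -1.0 and -1.24.

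The difference between the 12 h groups, against sucrose minus against sorbitol, passed for 1 of 43 listed genes and for 1.46% of all features. That gene was GDH2, with means of 2.63 against sucrose and 0.47 against sorbitol and a difference of 2.17 (adjusted p = 0.0119). The call did not pass when any sorbitol array was left out, with an adjusted p of up to 0.0853. Between the times, limma called none of the listed genes. The unadjusted p was under 0.05 for 4 of 42 genes for 24 minus 12 h, 6 of 40 for 48 minus 24 h and 12 of 40 for 48 minus 12 h. The same unadjusted threshold was met by 3.82%, 2.88% and 9.96% of all features, and after adjustment 0.0%, 0.0% and 0.00594% were called.

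Named genes with the pattern most like PPDKB were found over the 12 arrays among 1850 genes with a name and no blank. By Pearson correlation of log2 ratios the 8 closest were PUB12 (r = 0.959), PP2C10 (0.914), CIGR2 (0.909), MCCA (0.907), PSY1 (0.904), EXLA1 (0.897), OSL2 (0.892) and SK3 (0.885). The arrays share groups and the 3 sorbitol arrays form a cluster near 0, so these values describe a likeness and carry no p. Over the 9 arrays against sucrose alone the same genes had r from 0.718 (SK3) to 0.919 (PUB12 and PSY1). Of all 16800 features without a blank, 24 had r of at least 0.9 and 227 at least 0.8.

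Most ratios of these genes were smaller than those of PPDKB. PUB12, for a U-box ubiquitin ligase, was at 1.04, 0.79 and 0.24 at 12 h, at 0.14, 0.75 and 0.33 at 24 h and at 0.24, 0.99 and 0.03 at 48 h. Its high and low arrays were those of PPDKB, including the low replicate 1 at 24 h and replicate 3 at 48 h. MCCA, for a subunit of methylcrotonyl-CoA carboxylase in leucine breakdown, was at 2.21, 2.17 and 0.76 at 12 h and at 1.69, 1.81 and 0.13 at 48 h. OSL2, for a 4-aminobutyrate transaminase known from senescing rice leaves, was at 3.32, 2.03 and 0.44 at 12 h and at 2.46, 3.77 and 0.37 at 48 h. PSY1 encodes phytoene synthase of carotenoid synthesis, EXLA1 an expansin-like protein, CIGR2 a GRAS family regulator, PP2C10 a protein phosphatase and SK3 a protein kinase. At 24 h, where PPDKB was lowest on replicate 1 (1.66), MCCA, PSY1, EXLA1, OSL2 and SK3 were lowest on replicate 3, at 0.61, 0.09, 0.50, 1.08 and 1.48. SK3 was above PPDKB on 24 h replicate 1 (2.06) and on 48 h replicate 3 (1.12). EXLA1 was below 0 on 48 h replicate 3 (-0.67) and on the sorbitol arrays (-1.0, -0.91 and -0.73), where PPDKB was close to 0.

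By distance, which counts size as well as pattern, other genes came closest. The 5 named genes with the smallest Euclidean distance from PPDKB over the 12 arrays were YSL13 (3.73), URH2 (3.86), MTP7 (3.92), HXK6 (4.0) and TIP2;2 (4.06), and PPDK2 was at 15.8. None of the 5 was among the 8 by correlation. YSL13, a metal chelate transporter gene of the yellow stripe-like family, was at 4.97, 3.27 and 0.59 at 12 h and at 3.88, 5.60 and 0.45 at 48 h. HXK6, a hexokinase known in rice as a glucose sensor, was at 3.31, 2.45 and 3.18 at 12 h, at 2.89, 2.51 and 3.08 at 24 h and at 3.09, 2.44 and 2.07 at 48 h. On 48 h replicate 3 HXK6 was thus still high, unlike PPDKB. TIP2;2, an aquaporin of the vacuolar membrane, was at 4.26, 2.09 and 0.84 at 12 h and at 3.88, 4.89 and 1.71 at 48 h.

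**Figure D5:**
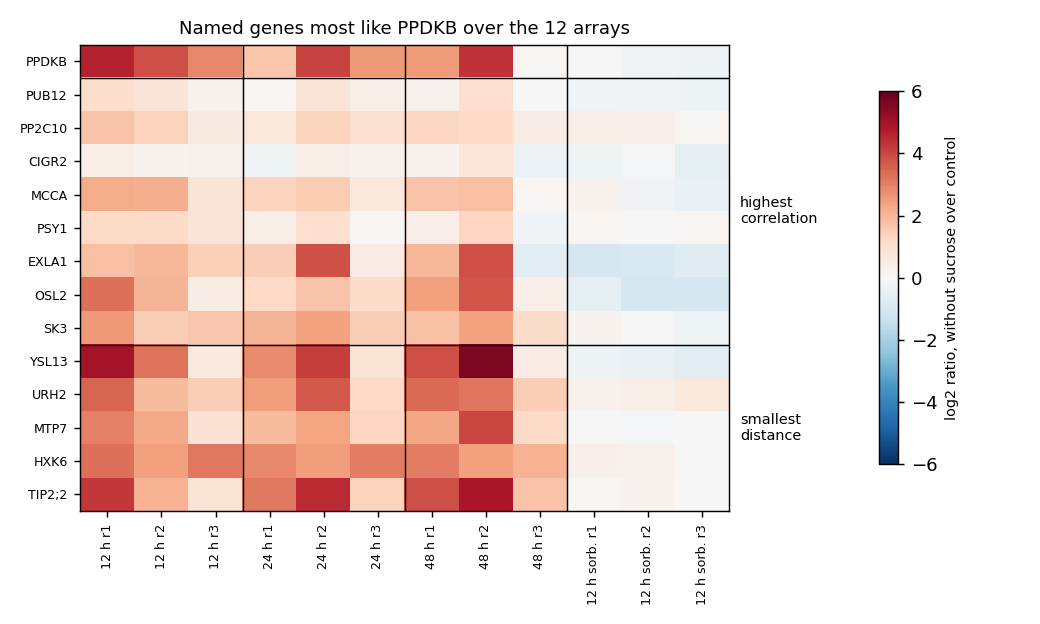
Log2 ratio of starved over control cells, as colour from -6 to 6, for PPDKB (top row), the 8 named genes with the highest Pearson correlation with it and the 5 with the smallest Euclidean distance from it, on each of the 12 arrays (columns, r for replicate, sorb. for sorbitol). PUB12 has its high and low arrays in nearly the order of PPDKB at smaller ratios, such as 1.04 where PPDKB is at 4.63. The lowest 24 h array is replicate 3 for MCCA, PSY1, EXLA1, OSL2 and SK3 and replicate 1 for PPDKB, and HXK6 is at 2.07 on 48 h replicate 3 where PPDKB is at 0.14.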

How the data were processed

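The authors deposited 1 table of 21495 probes by 12 arrays, whose values were read as natural log (ln) ratios of the 2 channels. Per the labels, cells without sucrose carried Cy5 and control cells Cy3. The software, background correction and normalization were not given in the sources used here. The ln scale was inferred from the values: the lowest ratio of 2 columns was 0.01 on that scale, and in the first 12 h column 316 ratios came out with exactly 1 decimal on it (tolerance 1e-05), against 79 on a log2 scale. The arrays against sorbitol and replicate 3 at 12 and 24 h held too few such values (4 to 6) to settle it, and the same scale was assumed for them. Deposited values were converted to log2. Blanks (2.41% of cells, 13.62% on 48 h replicate 2) were not filled in. Signal over background was not known for any probe.

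Probes of 1 gene were averaged, giving 19454 features. The gene table was of the RefSeq assembly ASM3414082v1, and 100% of the gene IDs matched. Limma 3.58.1 in R 4.3.3 (lmFit, eBayes) was fitted with 1 coefficient for each of 4 groups, and a feature was tested where all arrays compared had a value. P-values were two-sided, adjusted by Benjamini-Hochberg over every feature tested in a comparison, and called at 0.05. The groups share an estimate of the spread although the sorbitol arrays varied less. On simulated data for 12 h, the fit called 42%, 86%, 94% and 100% of genes given a log2 change of 1, 2, 3 and 4 (50 genes each). Many changes of 2-fold would thus not pass. The simulation gave a feature the same spread on all arrays, so it does not cover the smaller spread of the sorbitol arrays. Python 3.11.15, pandas 2.3.3, numpy 2.4.6, scipy 1.17.1 and matplotlib 3.10.9 made the rest.

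The members and lists were chosen with earlier results of these data known. Names matched 75 genes, 55 were kept and 48 were on the array. Of those dropped, most had a matched name or another name that belongs to a different kind of gene, and 3 were dropped from knowledge outside the table. Named genes are both PPDK genes, the amylases, up to 6 called genes of a list by size, and the closest genes by correlation and distance. The alternatives were median centring, quantile normalization, reading the values as log2, fitting each group alone, allowing a blank, a replicate block and leaving out each array.

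The labels number the replicates of each group. Same-numbered 24 and 48 h arrays deviated together (r = 0.566, 0.443 and 0.496), while those of 12 and 24 h did not in every pair (-0.201, -0.026 and 0.446). Only the 24 and 48 h arrays were therefore taken as pairs. At 12 h, replicate 3 deviated with replicate 3 at 24 and 48 h (0.446 and 0.461). Replicate 1 did so with replicate 2 (0.398 and 0.373), and replicate 2 with replicate 1 (0.524 and 0.334). Differences from 12 h were fitted without such pairs, and the replicate block used the numbers as labelled.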

Additional observations from a re-analysis of the deposited data

Results flagged for a closer look

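GDH2, a glutamate dehydrogenase gene, differed between the 12 h groups beyond the spread of the arrays by a test of the difference itself. Its mean log2 ratio was 2.63 ± 0.55 against sucrose and 0.47 ± 0.11 against sorbitol (SD, n = 3 each), a difference of 2.17 (limma, adjusted p = 0.0119). All 3 arrays against sucrose (3.27, 2.42 and 2.22) were above all 3 against sorbitol (0.55, 0.51 and 0.34). The adjusted p was up to 0.0853 when a sorbitol array was left out.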

How the results depend on the processing

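Read as log2 instead of natural logs, the values gave PPDKB 2.63 at 12 h, and PPDK2 -1.98 at 48 h and -0.18 against sorbitol. Quantile normalization put PPDKB at 1.5 at 48 h and -0.34 against sorbitol. Leaving out an array of the time gave PPDKB means between 3.38 and 4.26 for 12 h, between 2.13 and 3.32 for 24 h and between 1.34 and 3.43 for 48 h. PPDK2 ranged from -1.92 to -1.16 at 12 h and from -2.06 to -1.30 at 24 h when an array of the time was left out. With only the arrays of a group fitted, PPDK2 kept its means of -1.75 at 24 h and -0.26 against sorbitol, with adjusted p-values of 0.0631 and 0.0242. Counts of listed genes called were 12, 14, 23 and 0 at 12, 24 and 48 h and against sorbitol. With only the arrays of the group they were 7, 7, 14 and 18, and quantile normalization gave 11 against sorbitol. Leaving out an array gave between 4 and 14 calls for 12 h, between 5 and 17 for 24 h and between 14 and 24 for 48 h, and leaving out all sorbitol arrays gave 7 for 12 h. The cause was not tested. For 12 h against sucrose minus against sorbitol, the count of 1 became 0 to 4 without an array and 4 with the replicate block, where the arrays share only a number. The 12 h arrays deviated with later arrays of another number, replicate 1 with replicate 2 at 24 and 48 h (r = 0.398 and 0.373) and replicate 2 with replicate 1 (0.524 and 0.334). Elsewhere the replicate block gave 13, 19, 24 and 0 calls, and 0 for each difference between times. On the paired 24 and 48 h arrays alone, the block changed no call of a listed gene (0 with and without it). Of the 8 genes closest by correlation, 4 were among the closest 8 by Spearman correlation and 4 over the 9 arrays against sucrose. Each PPDK gene had 1 probe, so probes could not be compared.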

Other observations

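Of 22 other features with a mean log2 ratio of at least 3 at 12 h and values on all 12 and 48 h arrays, 6 had a lower mean at 48 than at 12 h and 1 had a more negative difference than the -1.47 of PPDKB. Against sorbitol, 12 of 22 such features had a mean between -0.5 and 0.5, as PPDKB did. Most features lie in that window. The 5th to 95th percentiles of all probes ran from -0.47 to 0.462, from -0.53 to 0.551 and from -0.617 to 0.605 on the sorbitol arrays. A mean near 0 against sorbitol is therefore no particular trait of PPDKB or of these features.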
